A study of Mus musculus with 20 samples.

Results

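The neocortex of old mice fed extra α-tocopherol was compared, gene by gene, with the neocortex of old mice on the control diet. The members are chosen by their labels alone: 5 α-tocopherol mice and 5 old control mice, each with its own array, 10 of the 20 arrays in the series. All were male B6C3F1 mice, the first-generation hybrid of C57BL/6 and C3H, housed singly and 30 months old at sampling. Old control mice received the control diet. α-Tocopherol mice received a diet supplemented with 1000 mg/kg α-tocopherol from 15 months of age. The other arrays came from 5 young control mice, 5 months old and on the control diet, and from 5 mice of 30 months whose diet held a mixture of α- and γ-tocopherol, 500 mg/kg of each, from 15 months of age. The sources used here do not state how much α-tocopherol the control diet held, so the contrast is between a supplement and a control diet, not between vitamin E and none.

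α-Tocopherol is the form of vitamin E that mammals retain, a lipid-soluble antioxidant that sits in membranes and ends chains of lipid peroxidation by giving up a hydrogen to lipid peroxyl radicals. It travels with lipoproteins, is sorted in the liver by the α-tocopherol transfer protein Ttpa, enters cells through lipoprotein receptors and lipases, and is broken down by cytochrome P450 enzymes that shorten its tail. Brain membranes are rich in the polyunsaturated fatty acids it protects, and it is also known to inhibit protein kinase C. γ-Tocopherol differs from it by lacking a methyl group on the ring.

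Poly(A) RNA of each mouse was measured as a signal intensity for every probe set of an oligonucleotide array, in array units scaled to a common mean, and 13351 genes were bright enough to be tested. The median signal was 292 ± 12.4 in old control and 296 ± 15.3 in α-tocopherol arrays (SD, n = 5 each; exact two-sided permutation p = 0.595). The 3′ to 5′ ratios and the 18S control signal, signs of RNA quality, had lower means in α-tocopherol mice. None of the 4 array measures had an adjusted p under 0.05. The ratio of the 3′ to the 5′ probe set was 2.04 ± 0.339 for β-actin in old control and 1.67 ± 0.391 in α-tocopherol mice (exact p = 0.143, 0.254 adjusted over the 4 array measures). For Gapdh the ratio was 0.957 ± 0.034 and 0.872 ± 0.0679 (exact p = 0.0476, adjusted 0.190). Without α-tocopherol mouse 1, the highest of its group in both ratios, the adjusted exact p were 0.0476 for β-actin and 0.0317 for Gapdh. Leaving out any other single mouse brought no adjusted p of these measures under 0.05. The 18S control signal was 564 ± 69.2 and 445 ± 172 (exact p = 0.190, adjusted 0.254). All 20 markers of neurons were among the genes tested, and their summed signal was 313772 to 363837 in old control and 295837 to 352703 in α-tocopherol mice. The dentate marker Prox1 lay below the limit for testing, as did the erythroid genes Hba-a1 and Alas2. Other markers of these kinds were tested: 9 of 14 of hippocampus and dentate gyrus and 14 of 16 of striatum. The globin genes Hbb-b1, Hbb-bs and Hbb-bt had no probe set of their own. Of 11 blood and erythroid markers 2 were tested, Fech and Bpgm. At an unadjusted p under 0.05, 1 was higher (Fech) and 0 lower, where 2.89% and 2.75% of all genes were.

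No gene differed between α-tocopherol and old control neocortex past the threshold. With limma and Benjamini-Hochberg adjustment, 0 of 13351 genes (0%) had an adjusted p under 0.05, and the lowest adjusted p was 0.829. An unadjusted p under 0.05 was reached by 753 genes (5.64%). Of these 386 had a higher mean (2.89% of all genes) and 367 a lower mean (2.75%) with α-tocopherol. That split depended on the scaling: with the array medians set equal, 205 of 595 such genes were higher, and the median difference of all genes was -0.028 in place of -0.005 on the log2 scale. Whatever their p, 6472 genes (48.5%) had the higher mean with α-tocopherol. All 5 α-tocopherol mice lay above all 5 old controls for 67 genes (0.502%) and below them for 40 (0.300%), 107 in all (0.801%). The same fit called 3039 genes (22.8%) between old and young control mice, so these arrays did yield calls in another comparison.

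Most genes were measured closely enough to bound their difference. The median size of the log2 difference was 0.082 and the median standard error 0.111, with groups of 5 mice. For 88% of the genes the 95% confidence interval excluded any difference beyond 1.5-fold, and for 98% any beyond 2-fold. Only 94 genes had means more than 1.5-fold apart and 10 more than 2-fold. The spread between mice was alike in both groups, with a median SD of 0.165 in old control and 0.167 in α-tocopherol mice on the log2 scale. All fold changes here are on the scale of log2(signal + 16), which understates the change of dim genes.

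**Figure D1:**
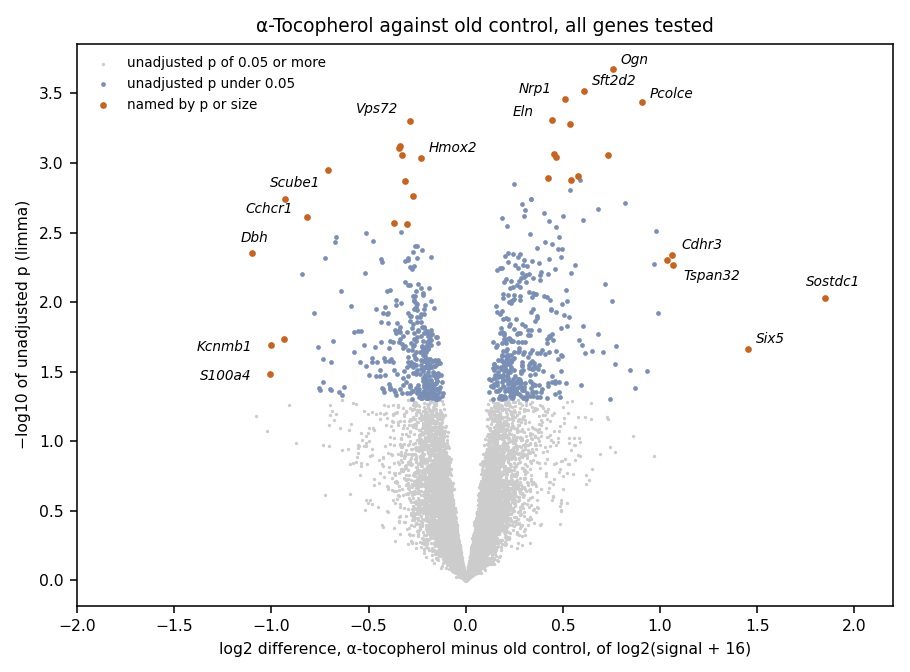
Each point is 1 of the 13351 genes, with the log2 difference of α-tocopherol minus old control mice on the x axis (5 mice per group) and minus log10 of the unadjusted limma p on the y axis. Orange points are genes named by their p or size, blue points other genes with unadjusted p under 0.05, and the cloud is centred near 0 with no gene past the adjusted threshold.

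Genes of the extracellular matrix were among the 12 higher genes with the lowest p in α-tocopherol mice. Ogn, osteoglycin, a small leucine-rich proteoglycan of connective tissue, had the smallest p of all genes. Its signal was 354, 490, 233, 385 and 282 in old controls 1 to 5 and 561, 708, 523, 615 and 525 in α-tocopherol mice 1 to 5. Every α-tocopherol mouse lay above every old control, and the means differed 1.69-fold (log2 difference 0.76 ± 0.17 SE, 95% interval 0.40 to 1.11, limma unadjusted p = 0.000213, adjusted p = 0.829). Sft2d2, a membrane protein of the SFT2 vesicle transport family, gave 1227, 1058, 1044, 1393 and 1389 in old control and 1787, 1929, 2084, 1700.5 and 1829 in α-tocopherol mice. Its groups did not overlap either, at 1.53-fold, although 1 of its 4 probe sets went the other way. Nrp1, neuropilin-1, a co-receptor for semaphorins and vascular endothelial growth factor, gave 1631, 1722, 1166, 1473 and 1457 against 2719, 1845, 2144, 1784 and 2192 (1.43-fold), with all 3 probe sets in this direction.

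Pcolce, which enhances the enzyme that trims procollagen, had the largest difference of these 12 genes, 1.88-fold. Its signals were 373, 617, 304, 260.2 and 275 in old control and 866, 621, 625, 701 and 556 in α-tocopherol mice. Old control mouse 2 reached the level of the supplemented mice, so the groups overlapped. Eln, elastin, gave 455, 592, 522, 672 and 646.5 against 813, 764, 951, 710.5 and 704, without overlap (1.36-fold). Thbd, thrombomodulin, an anticoagulant receptor of endothelium, gave 440.1, 586, 453, 432 and 386 against 668, 801, 623, 639 and 625, also without overlap (1.45-fold). The other genes of this set were the synaptic adhesion gene Lrrtm3 (1.37-fold), the death-domain adaptor Pidd1 (1.66-fold), the Rab11-binding gene Wdr44 (1.38-fold), the matrix proteoglycan fibromodulin, Fmod (1.49-fold), the fibroblast gene Islr (1.34-fold) and the zinc finger gene Zfp248 (1.46-fold, 1 of 2 probe sets). Groups did not overlap for 6 of the 12 genes, against 0.502% of all genes, but the genes were chosen by their p in the same contrast and the count is a description.

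The 12 lower genes with the lowest p had log2 differences of 0.23 to 0.93 in size, against 0.42 to 0.91 for the 12 that were higher. Hmox2, the constitutive haem oxygenase, gave 5487, 5758, 5441, 5413 and 5089.7 in old control and 4836, 4785, 4207, 4357 and 5016 in α-tocopherol mice. All supplemented mice lay below all controls, yet the means were only 1.17-fold apart (log2 difference -0.23 ± 0.06 SE, unadjusted p = 0.000918). Vps72, a subunit of chromatin complexes that deposit the histone variant H2A.Z, gave 2438, 2424, 2539.8, 2655 and 2274 against 1944, 1931, 2220.4, 2122 and 1884, 1.22-fold lower with α-tocopherol. Snx9, a sorting nexin of endocytosis, gave 1050.1, 982.5, 1106, 1086 and 1163 against 964, 868, 879, 877 and 704, 1.25-fold lower on this probe set and of opposite sign on the other of its 2. Neither gene overlapped between the groups.

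Cchcr1, a coiled-coil gene, gave 611, 466, 598, 583 and 427 in old control and 426, 349.5, 188, 192 and 409.7 in α-tocopherol mice, and the closest pair of mice from the 2 groups was less than 1 unit apart. Its means differed 1.76-fold. Pwp2, of the small ribosomal subunit processome, was 1.21-fold lower and Slc4a1ap, kanadaptin, 1.23-fold lower, both without overlap. The groups overlapped for the other 6 genes: the junction gene Vezt (1.26-fold lower, 1 of 3 probe sets), the deubiquitinase scaffold Abraxas2 (1.27-fold, on a probe set marked for possible cross-hybridisation), the ubiquitin-conjugating enzyme gene Ube2t (1.64-fold), the PWWP-domain gene Pwwp3a (1.24-fold), the secreted protein gene Scube1 (1.90-fold) and the interleukin receptor gene Il17ra (1.29-fold, 1 of 2 probe sets). Groups did not overlap for 6 of the 12 lower genes, against 0.300% of all genes that lay below. These genes too were chosen by their p in the same contrast, so the count is a description. All 24 genes had an adjusted p of 0.829.

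**Figure D2:**
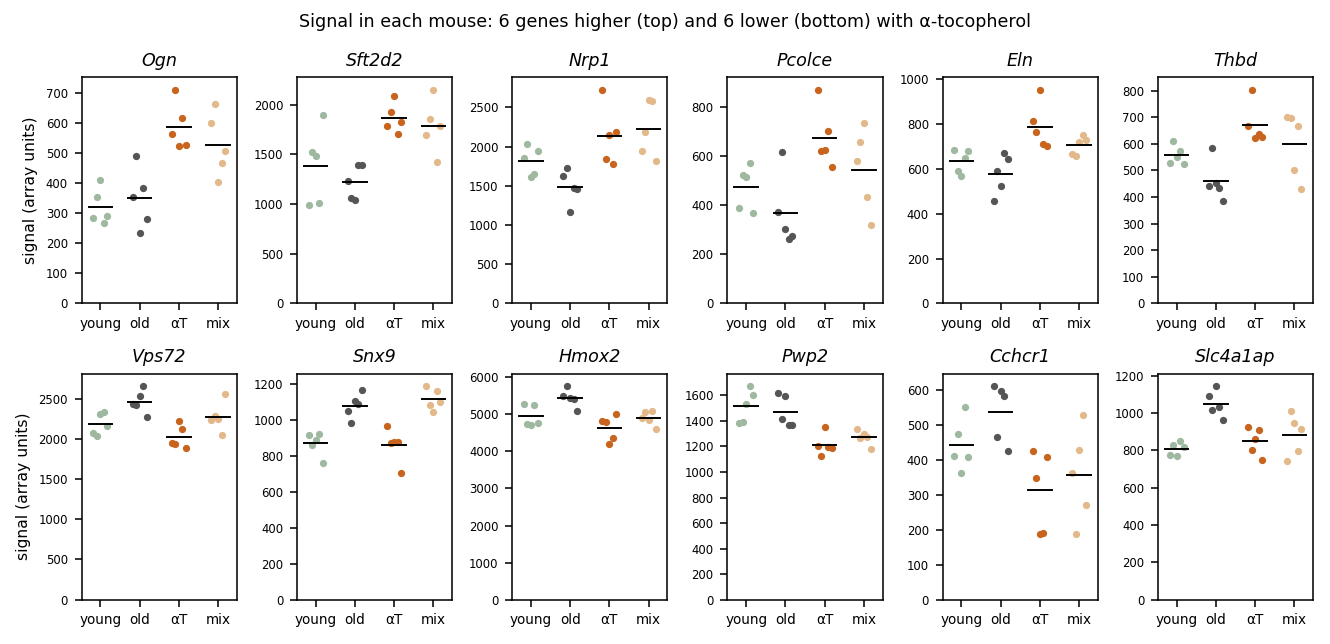
Signal in array units (y axis, from 0) of 12 genes in each mouse of the 4 groups on the x axis, 5 points per group in the order of mouse number, with a line at the arithmetic mean. In the top row the α-tocopherol mice (αT) lie above the old controls, with overlap only for Pcolce; in the bottom row they lie below them without overlap.

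The 5 largest differences in each direction among genes with an unadjusted p under 0.05 were also followed. Sostdc1, a secreted antagonist of BMP and Wnt signalling made by choroid plexus, gave 33, 983, 25.9, 24.2 and 297 in old control and 393, 205, 583, 679 and 401 in α-tocopherol mice (3.60-fold, log2 difference 1.85 ± 0.65 SE). Old controls 1, 3 and 4 had the lowest signals, while old control mouse 2 was the highest of all 10. The homeobox gene Six5 was 2.74-fold higher, from 31.7 to 359 in old control to 61.4 to 479 in α-tocopherol mice, so it overlapped too. Tspan32, a tetraspanin, gave 184, 167, 204, 167 and 162 against 574, 197, 371, 482 and 422 (2.10-fold), where only α-tocopherol mouse 2 reached into the range of the controls. Cdhr3, a cadherin-related gene of ciliated epithelium, gave 166.5, 33, 284, 177 and 47.8 against 287, 256, 272, 242 and 197.5 (2.09-fold). Prrx1, a homeobox gene of mesenchyme, had means 2.05-fold apart.

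Dbh, dopamine β-hydroxylase, the enzyme that makes noradrenaline, had the largest difference toward lower signal. It gave 779.7, 417, 598, 490.4 and 282 in old control and 70, 394, 128, 426 and 299.8 in α-tocopherol mice (2.14-fold lower). Mice 1 and 3 of the supplemented group were far below the rest, and the other 3 lay within the range of the controls. Smaller in size were Scube1, the calcium-binding gene S100a4 (2.01-fold lower), the smooth muscle potassium channel subunit Kcnmb1 (2.00-fold) and the channel subunit Kcne4 (1.91-fold). For S100a4, Kcnmb1 and Kcne4 at least 1 α-tocopherol mouse lay inside the range of the old controls.

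Markers of the meninges, the connective tissue that covers the cortex, were the gene group with most members at an unadjusted p under 0.05. Of 27 such markers 21 were tested, 8 of them had a higher mean with α-tocopherol at that level and 0 a lower mean, where 2.89% and 2.75% of all genes did. The median difference of the list was 0.29 on the log2 scale, against -0.005 for all genes, and 19 of 21 members had the higher mean. None had an adjusted p under 0.05. The list was chosen with earlier results of these mice known, so its direction is no independent evidence. In bulk tissue fewer cells of a type and less RNA per cell cannot be told apart.

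Beside Ogn, Fmod and Islr, the 8 genes were a transcription factor, a gap junction gene and carriers of the arachnoid and pia. Zic1, a zinc finger factor of meningeal and other cells, gave 1413, 2198, 1614, 1630.1 and 941 in old control and 2986, 2055, 2927, 1999.8 and 1768 in α-tocopherol mice (1.52-fold). Gjb2, connexin 26, which couples meningeal cells, gave 652, 570.4, 494, 511 and 328 against 764, 702, 657, 614 and 696 (1.36-fold), with overlap of 1 α-tocopherol mouse only. Slc6a13, a GABA and taurine transporter, was 1.52-fold, the proline transporter Slc6a20a 1.39-fold and the sulphate transporter Slc13a4 1.71-fold higher. The intervals are wide, such as 0.13 to 1.42 on the log2 scale for Slc13a4.

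Other meningeal genes did not separate the groups. The insulin-like growth factor gene Igf2 had a log2 difference of 0.29 (interval -0.01 to 0.59), the proteoglycan gene Lum 0.39 (-0.07 to 0.84) and the collagen gene Col1a2 0.30 (-0.01 to 0.62). For Dcn, decorin, a major proteoglycan of the same fibroblasts, the difference was 0.05 (-0.24 to 0.33), and for the collagen gene Col1a1 0.05 (-0.31 to 0.42). Ptgds, the prostaglandin D synthase of the arachnoid, differed by 0.13 (-0.05 to 0.32). The members below 0 included Nupr1, a stress-induced nuclear protein, at -0.23 on a probe set marked for possible cross-hybridisation. The 6 markers below the limit for testing included the forkhead gene Foxd1 and the T-box gene Tbx18.

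The start regions of 3 genes are shown, to set side by side the gene with the smallest p (Ogn), a meningeal connexin (Gjb2) and a choroid plexus gene described next (Kl). Each run is the 250 bases before the RefSeq start in assembly GRCm38.p6, 5′ to 3′ on the gene's strand, in lower case, with capitals for a TATA box (TATAAA) or a GC box (GGGCGG) on either strand.
Ogn, chr13:49607765-49608014, plus strand: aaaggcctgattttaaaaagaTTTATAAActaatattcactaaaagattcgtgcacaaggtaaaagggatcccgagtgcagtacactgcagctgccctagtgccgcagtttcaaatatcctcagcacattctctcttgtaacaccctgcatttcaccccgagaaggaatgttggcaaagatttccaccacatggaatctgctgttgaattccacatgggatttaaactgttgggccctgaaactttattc
Gjb2, chr14:57104703-57104952, minus strand: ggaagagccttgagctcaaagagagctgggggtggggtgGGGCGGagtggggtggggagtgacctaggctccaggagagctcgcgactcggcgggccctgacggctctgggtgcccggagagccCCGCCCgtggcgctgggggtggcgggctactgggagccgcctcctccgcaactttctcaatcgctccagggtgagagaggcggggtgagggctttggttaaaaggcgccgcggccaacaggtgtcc
Kl, chr5:150952357-150952606, plus strand: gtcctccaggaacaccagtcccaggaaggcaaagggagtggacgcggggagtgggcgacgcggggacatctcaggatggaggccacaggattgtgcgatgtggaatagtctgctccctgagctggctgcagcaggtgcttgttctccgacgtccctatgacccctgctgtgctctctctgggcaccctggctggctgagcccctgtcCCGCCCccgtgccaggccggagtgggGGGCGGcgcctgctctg
The Ogn window holds a TATA box on each strand that overlap in a single run, no GC box and 4 CpG dinucleotides, at a GC content of 42.0%. Those of Gjb2 and Kl hold no TATA box and 1 GC box on each strand, with 18 and 13 CpG dinucleotides and a GC content of 69.2% and 66.8%. Of 32851 promoter windows of this length, 12.4% hold the TATA letters and 32.7% the GC box letters on either strand. The matches are a description of the windows, not of bound sites.

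The meningeal level of each mouse, the mean over the list's log2 signals relative to the old control mean, placed 1 control with the supplemented mice. It was 0.005, 0.319, -0.088, -0.046 and -0.191 in old controls 1 to 5 and 0.308, 0.346, 0.364, 0.323 and 0.199 in α-tocopherol mice 1 to 5. Old control mouse 2 lay above 2 of the 5 supplemented mice, and the other 4 controls lay below all 5. Without that mouse 13 members had an unadjusted p under 0.05, and without old control mice 3 and 5 the number was 5. Of all 13351 genes 873 and 805 did so in these settings. Young control mice ranged from 0.070 to 0.309. The summed signal of the list was 38167 to 47132 in old control and 41542 to 55566 in α-tocopherol mice. With the signal of the choroid plexus gene Ttr added to the fit, the median difference of the list was 0.192, the lowest of the alternatives.

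Collagens and other matrix genes, the broader group to which Pcolce and Eln belong, gave a smaller shift. Of 38 tested 4 were higher at an unadjusted p under 0.05 and 0 lower, with a median log2 difference of 0.11. The shares over all genes were 2.89% higher and 2.75% lower. Without old control mouse 2 the number was 8, and without old control mouse 5, without α-tocopherol mouse 4 or with the Ttr signal added to the fit it was 2. In these settings 873, 899, 758 and 586 of all 13351 genes reached that level, in either direction. Without old control mouse 4 the median was 0.051.

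Markers of the choroid plexus, the epithelium of the ventricles that secretes cerebrospinal fluid, varied widely between the mice of both groups. Of 20 such markers 13 were tested, 3 had a higher mean at an unadjusted p under 0.05 and 0 a lower mean. Of all genes 2.89% and 2.75% did so. The median log2 difference of the list was 0.33. The 3 choroid plexus genes were Sostdc1, Kl and Ttr. Kl, klotho, a co-receptor for fibroblast growth factor 23, gave 89, 547, 65.1, 103 and 227 in old control and 230.5, 196, 512, 421 and 341 in α-tocopherol mice (1.99-fold). Old control mouse 2 was the highest of all 10 and the other controls were spread over a more than 2-fold range.

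Ttr, transthyretin, the main secreted protein of this epithelium, gave 14076, 44097, 8129, 10254 and 50082 in old control and 44416, 16214, 43795, 44322 and 34842 in α-tocopherol mice (1.80-fold, interval 0.09 to 1.61 on the log2 scale), on a probe set marked for possible cross-hybridisation. Both groups held high and low mice: old controls 2 and 5 were high, and α-tocopherol mouse 2 was low. Other genes of the epithelium had intervals that included 0. The log2 differences were 0.77 for the channel subunit Kcne2, 0.33 for the folate receptor Folr1 and 0.33 for the channel Kcnj13. The chloride channel gene Clic6 differed by 0.24 and Sulf1, a sulphatase, by -0.14.

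The choroid plexus level was -0.373, 0.956, -0.321, -0.552 and 0.291 in old controls 1 to 5 and 0.323, -0.009, 0.928, 0.814 and 0.236 in α-tocopherol mice 1 to 5. The groups overlapped, and the summed signal ran from 12522 to 54344 in old control and from 20311 to 50758 in α-tocopherol mice. Without old control mouse 2, 7 of 13 members had an unadjusted p under 0.05, as did 873 of all 13351 genes. Adding the β-actin ratio to the fit left 0 of 13, and adding the Ttr signal 0 of the 12 others. Ttr is itself a member of this list, so that fit is no independent test of the others. The median was 0.159 without α-tocopherol mouse 3 and 0.213 without old control mouse 1. With the Ttr signal in the fit it was 0.036 over the 12 others. The choroid markers Otx2, Cldn1, Slc4a5, Lmx1a and Trpv4 lay below the limit for testing. The part of these tissues in the differences of Ogn, Kl and the like was not tested.

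**Figure D3:**
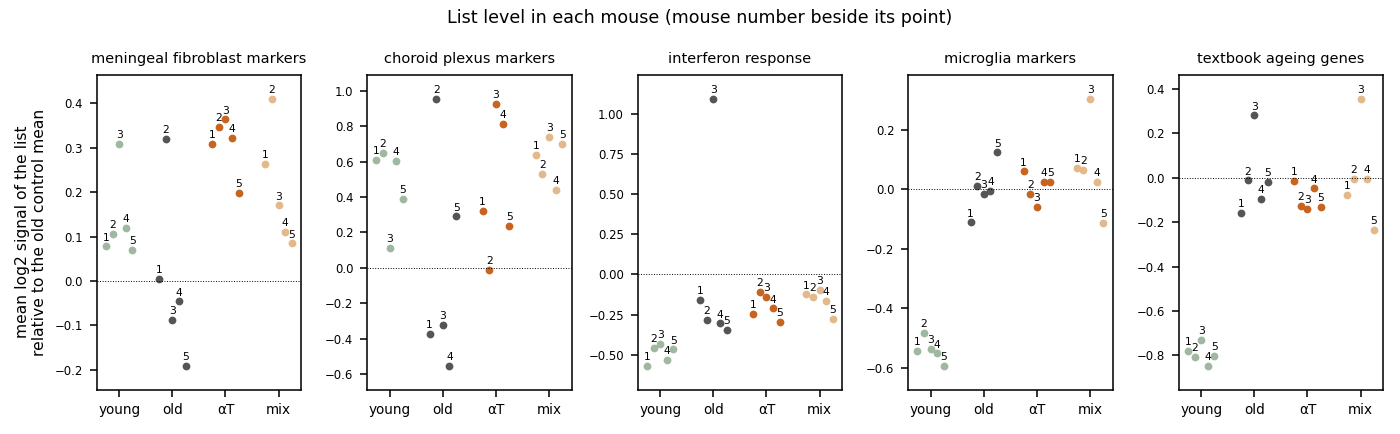
Mean log2 signal of 5 gene lists relative to the old control mean (y axis) in each mouse of the 4 groups on the x axis, with the mouse number at each point. For meningeal markers all α-tocopherol mice (αT) lie above old controls 1, 3, 4 and 5, choroid plexus markers spread widely in both groups, and old control mouse 3 stands alone for the interferon response at 1.09.

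Genes that carry and metabolise vitamin E itself showed little difference. Of 33 such genes 25 were tested. None was higher at an unadjusted p under 0.05 and 1 was lower, where 2.89% and 2.75% of all genes were. The median difference was -0.01, and the interval lay within 1.5-fold for 22 and within 2-fold for all 25. Ttpa, the transfer protein, gave 238, 294, 229, 291 and 276 in old control and 197, 189, 334, 328 and 342 in α-tocopherol mice. Mice 1 and 2 of the supplemented group were below all controls and mice 3, 4 and 5 above all of them, and the means differed by 0.03 ± 0.18 SE on the log2 scale. Sec14l2, a tocopherol-associated lipid carrier, differed by -0.10 (interval -0.27 to 0.07).

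Receptors and lipases that bring in tocopherol with lipoproteins were as close. The log2 difference was -0.07 (interval -0.32 to 0.17) for Scarb1, the scavenger receptor that takes up lipid from high-density lipoprotein. It was 0.03 (-0.15 to 0.21) for the receptor Lrp1, with 1 of its 2 probe sets in the opposite direction, and -0.11 (-0.28 to 0.05) for lipoprotein lipase, Lpl, whose other probe set also disagreed. Apoe, the main apolipoprotein of brain, gave 31715, 38586, 37683, 34996 and 44103 against 42301, 35454, 40929.6, 36577.5 and 34221, a difference of 0.02 (-0.14 to 0.18). Pltp, the phospholipid transfer protein, differed by 0.11 (-0.11 to 0.33), on a probe set marked for possible cross-hybridisation. The sign of each of these differences turned with the processing or when mice were left out. Lpl was at 0.10 with means over probe sets, and Pltp at -0.067 without old control mice 3 and 5.

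Of the 25 tested genes of this list, 1 lay above all old controls in every supplemented mouse and 1 below. Over all genes 0.502% lay above and 0.300% below. Both list members were sterol transporters. Abcg1, which exports cholesterol to lipoproteins, gave 2756, 2784, 2715, 2849 and 2745 in old control and 2425.5, 2474, 2594, 2701.5 and 2302 in α-tocopherol mice. All 5 supplemented mice were below the controls, 1.11-fold (log2 difference -0.15 ± 0.07 SE, unadjusted p = 0.0369), with the other of 2 probe sets of opposite sign. Abcg8, a subunit of a sterol transporter, gave 299, 311, 324, 298 and 279 against 385, 386, 328, 443 and 333, all above, 1.22-fold (unadjusted p = 0.0983). Abca1, which loads lipid onto apolipoproteins, was 1.17-fold (0.056), the intestinal sterol transporter Npc1l1 1.17-fold (0.0535) and the lysosomal cholesterol carrier Npc2 1.14-fold lower (0.0554), with the unadjusted p in brackets.

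Enzymes that remove superoxide and peroxides were likewise near 0. Of 31 such genes 28 were tested, of which 0 were higher and 1 lower at an unadjusted p under 0.05, and the median difference was -0.03. The shares over all genes were 2.89% and 2.75%. Glrx2, the mitochondrial glutaredoxin, gave 4872, 4736, 4534, 4484 and 4337 in old control and 4008.5, 4312, 3671, 4161 and 4247 in α-tocopherol mice (1.13-fold lower, unadjusted p = 0.017, all 3 probe sets). The groups did not overlap. Sod1, the cytosolic superoxide dismutase, differed by -0.13 (interval -0.31 to 0.04) and Sod2, its mitochondrial relative, by -0.16 (-0.34 to 0.02).

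Gpx4, the peroxidase that reduces lipid hydroperoxides within membranes and so works beside vitamin E, gave 14139.8, 14049.9, 13923, 15169.9 and 17586 against 16105, 13339, 14981, 17533 and 15763. Its groups overlapped fully and the log2 difference was 0.05 (-0.09 to 0.20). Gpx1, the cytosolic glutathione peroxidase, differed by -0.18 (-0.37 to 0.02) and Cat, catalase, by 0.11 (-0.14 to 0.36). The widest interval was that of Gpx8, a peroxidase of the endoplasmic reticulum, -0.20 to 1.24, and old control mouse 3 alone had a signal of 27.2 where the other controls had 211 to 251. Without old control mice 3 and 5 its difference was -0.00.

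**Figure D4:**
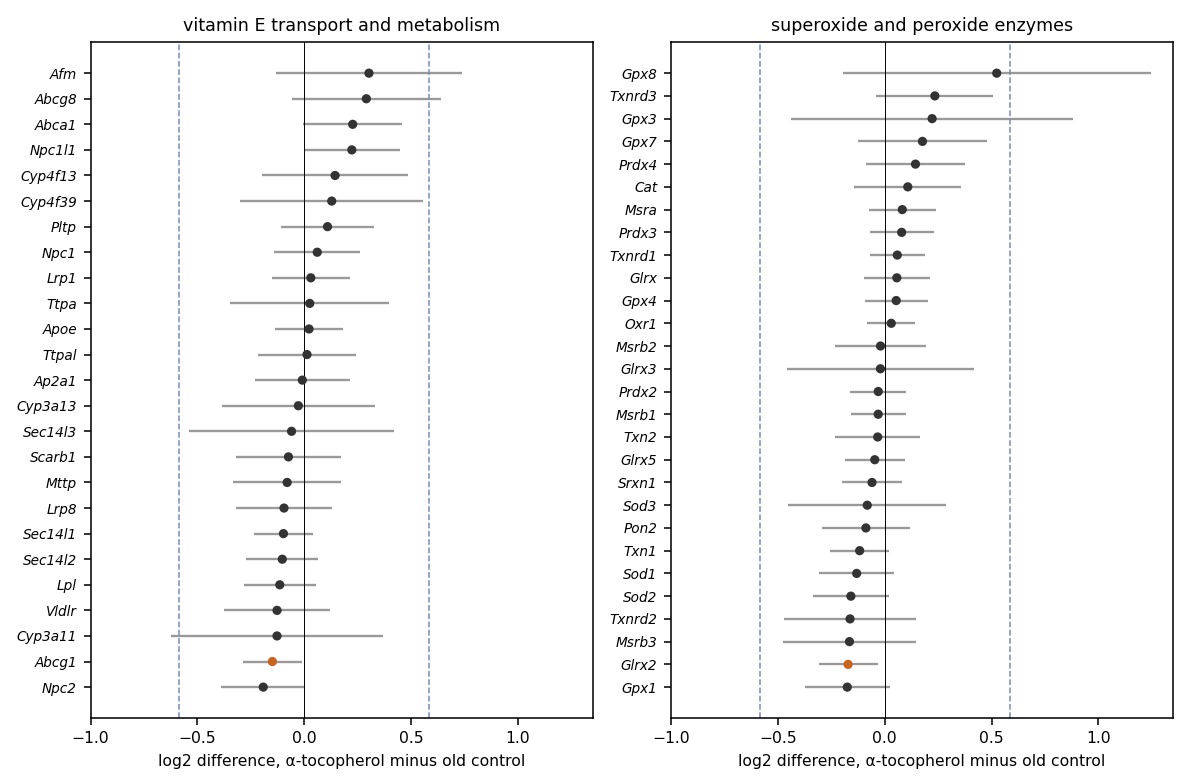
Log2 difference of α-tocopherol minus old control mice (x axis, 5 mice per group) with its 95% limma interval for the 25 tested genes of vitamin E transport and metabolism (left) and the 28 tested enzymes against superoxide and peroxides (right). Orange points are Abcg1 and Glrx2, with unadjusted p under 0.05, and dashed lines mark 1.5-fold in either direction.

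Glutathione enzymes and targets of Nrf2, the factor that answers oxidative stress, gave 1 higher and 1 lower gene of 34 tested (median -0.01). All 34 intervals lay within 1.5-fold. Over all genes 2.89% were higher and 2.75% lower at an unadjusted p under 0.05. The lower gene of the list was Hmox2, the constitutive haem oxygenase, while its relative Hmox1 lay below the limit for testing. The higher was Slc7a11, the cystine importer for glutathione synthesis (1.22-fold, unadjusted p = 0.0404, 1 of 2 probe sets). Of 25 lipid oxidation and eicosanoid enzymes 1 was higher and 0 lower (median 0.04). It was Lpcat3, which places polyunsaturated fatty acids in phospholipids (1.22-fold, unadjusted p = 0.0381). That value rested on old control mice 3 and 5, without which the log2 difference was -0.00. Alox5ap, needed for leukotriene synthesis, was 1.16-fold lower (unadjusted p = 0.0788).

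Protein kinase C genes and their partners gave 0 higher and 2 lower members of 32 tested, with a median of 0.01. Over all genes 2.89% were higher and 2.75% lower at an unadjusted p under 0.05. The classical isoform Prkca differed by -0.02 (interval -0.21 to 0.17). The 2 lower genes of the list were Nrgn, neurogranin, a kinase substrate of dendritic spines (1.12-fold, unadjusted p = 0.0263), and the phosphatase subunit Ppp2r1b (1.23-fold, 0.0294). The groups overlapped for both. The counts were 3 higher and 0 lower without old control mouse 5, and 0 and 0 without old control mouse 3 or α-tocopherol mouse 2. In these settings 899, 654 and 616 of all 13351 genes had an unadjusted p under 0.05, in either direction.

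Genes of the interferon response had lower means with α-tocopherol in 29 of 34 tested, and this rested on a single control. The median difference was -0.22, and 1 gene was lower at an unadjusted p under 0.05, where 2.75% of all genes were. It was Irf1, a transcription factor of the response (1.25-fold). Irf1 gave 2022, 2036, 3051, 1898 and 1823 in old control and 2099, 2005, 1558, 1642 and 1330 in α-tocopherol mice. The list level was -0.158, -0.285, 1.094, -0.305 and -0.346 in old controls 1 to 5 and -0.244, -0.108, -0.140, -0.212 and -0.296 in α-tocopherol mice. Old control mouse 3 was far above all others, and without it the median was 0.05, with 1 gene higher and 0 lower. In that setting 654 of all 13351 genes had an unadjusted p under 0.05, 358 of them higher. The GTPase gene Irgm1 (805, 698, 1482, 883 and 659.6 in old control mice) and B2m, the light chain of class I antigens (6453, 6730, 10028, 6164 and 6449), were highest in the same mouse.

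Genes known to differ with age in the brain lay near the old control level in supplemented mice. Of 30 such genes tested 0 were higher and 1 lower at an unadjusted p under 0.05, where 2.89% and 2.75% of all genes were. The median difference was -0.12, and it was -0.04 without old control mouse 3 and 0.01 without old control mice 3 and 5. The number of lower genes was 5 without old control mouse 5 and 3 without α-tocopherol mouse 1. In these settings 899 and 1036 of all 13351 genes had an unadjusted p under 0.05, in either direction. The list level of α-tocopherol mice was -0.141 to -0.014 and that of young mice -0.846 to -0.731, both relative to old controls, which ranged from -0.158 to 0.281. Gfap, the intermediate filament of astrocytes, gave 6929, 8071, 8336, 7165 and 8272 in old control and 6378, 7237, 8014, 5999.7 and 6629 in α-tocopherol mice, where the mean of young mice was 2182 (means are back-transformed from log2). The old groups overlapped (log2 difference -0.18 ± 0.18 SE). Apod, apolipoprotein D, differed by 0.04 (interval -0.19 to 0.28) and Mbp, myelin basic protein, by -0.08 (-0.29 to 0.12).

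Microglia, the resident immune cells, had 2 higher and 1 lower of 23 markers at an unadjusted p under 0.05 and a median of -0.01. The shares over all genes were 2.89% and 2.75%. Sall1, a transcription factor of resting microglia, gave 499, 627, 501, 544 and 523 in old control and 669.9, 830.2, 699, 857 and 693 in α-tocopherol mice, without overlap (1.38-fold). P2ry12, a purine receptor of resting microglia, was 1.23-fold higher. C1qb, a complement subunit, was 1.31-fold lower, with 2638, 1896, 1418, 2231 and 2152.5 in α-tocopherol mice against 2417 to 3014 in old controls, on a probe set marked for possible cross-hybridisation. α-Tocopherol mouse 1 lay inside the range of the controls.

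Markers of the other brain cells lay close to 0. The median difference was 0.04 over 19 astrocyte markers, 0.06 over 16 of myelin, 0.04 over 13 of oligodendrocyte precursors, -0.03 over 20 of neurons, -0.01 over 17 of GABAergic interneurons and 0.05 over 17 of endothelium and pericytes. Across these 6 lists 3 genes had an unadjusted p under 0.05: S100b, an astrocyte calcium-binding protein (1.11-fold lower), Ptprz1, a receptor phosphatase of precursors (1.15-fold higher), and Nrgn. That level was reached by 5.64% of all genes. Of neighbouring regions, thalamic and hypothalamic markers had a median of 0.17, with Lef1 (1.28-fold) and the vesicular glutamate transporter Slc17a6 (1.26-fold) at an unadjusted p under 0.05 among 14. Without α-tocopherol mouse 3 that median was 0.061 with 0 genes at that level, and without old control mouse 3 or old control mouse 5 there were also 0. Striatal markers had a median of -0.06, with the cyclase Adcy5 1.15-fold lower (1 of 2 probe sets), and 9 hippocampal markers -0.07 with no gene at that level. Ependymal markers had a median of 0.11 and no gene at that level.

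Metabolic and stress pathways had medians slightly below 0 and few genes at an unadjusted p under 0.05. Over all genes 2.89% were higher and 2.75% lower at that level. Of 20 cholesterol synthesis genes 16 had the lower mean (median -0.09), and 2 an unadjusted p under 0.05. These were Cyp51, lanosterol demethylase (1.16-fold), and Hsd17b7 (1.19-fold, 1 of 4 probe sets). Oxidative phosphorylation gave 0 higher and 2 lower of 45 (median -0.05), the complex I subunits Ndufa2 (1.14-fold) and Ndufb8 (1.15-fold). These values moved widely. Without α-tocopherol mouse 1 the counts were 1 higher and 10 lower. Of all 13351 genes, 1036 had an unadjusted p under 0.05 in that setting, 477 of them higher. Without old control mouse 4, α-tocopherol mouse 3 or α-tocopherol mouse 5 the counts for the list were 0 and 0. With quantile normalization they were 3 and 1, with a median of 0.009, and 714 of all genes reached that level. The median was -0.002 without old control mouse 3.

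At an unadjusted p under 0.05, where 2.89% of all genes were higher and 2.75% lower, chaperones gave 1 higher and 3 lower of 30 (median -0.07). Without old control mouse 3 they gave 1 higher and 0 lower (median -0.017). The list level of that mouse was 0.208 where the other controls had -0.110 to -0.008. Without old control mouse 1 the number of lower genes was 6, and without α-tocopherol mouse 4 it was 1. Of all 13351 genes 654 reached that level in either direction without old control mouse 3. The numbers were 633 without old control mouse 1 and 758 without α-tocopherol mouse 4. The higher gene was Dnajc3, a co-chaperone of the endoplasmic reticulum, with 1854, 1863, 2222.5, 2154.5 and 2208 in old control and 2514, 2346, 2626, 2521.5 and 2593 in α-tocopherol mice, without overlap (1.22-fold, 3 of 5 probe sets). Ahsa1, the activator of Hsp90, was 1.14-fold lower. The response to stress of the endoplasmic reticulum gave 0 higher and 3 lower of 26 (median -0.01), including Ddit3, the factor CHOP (1.19-fold, 1886, 1703, 2017, 1962.5 and 1895 against 1722, 1568, 1618, 1535 and 1506). The circadian clock gave 0 and 2 of 21 (median -0.04), Bhlhe40 (1.21-fold) and the kinase gene Csnk1d (1.17-fold, 2 of 5 probe sets). The count of lower genes was 1 without old control mouse 1 or 4 for the endoplasmic reticulum list, and 0 without α-tocopherol mouse 2 for the clock. None of 30 activity-regulated early genes reached an unadjusted p under 0.05, and the smallest p was that of Gadd45b (0.115).

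**Figure D5:**
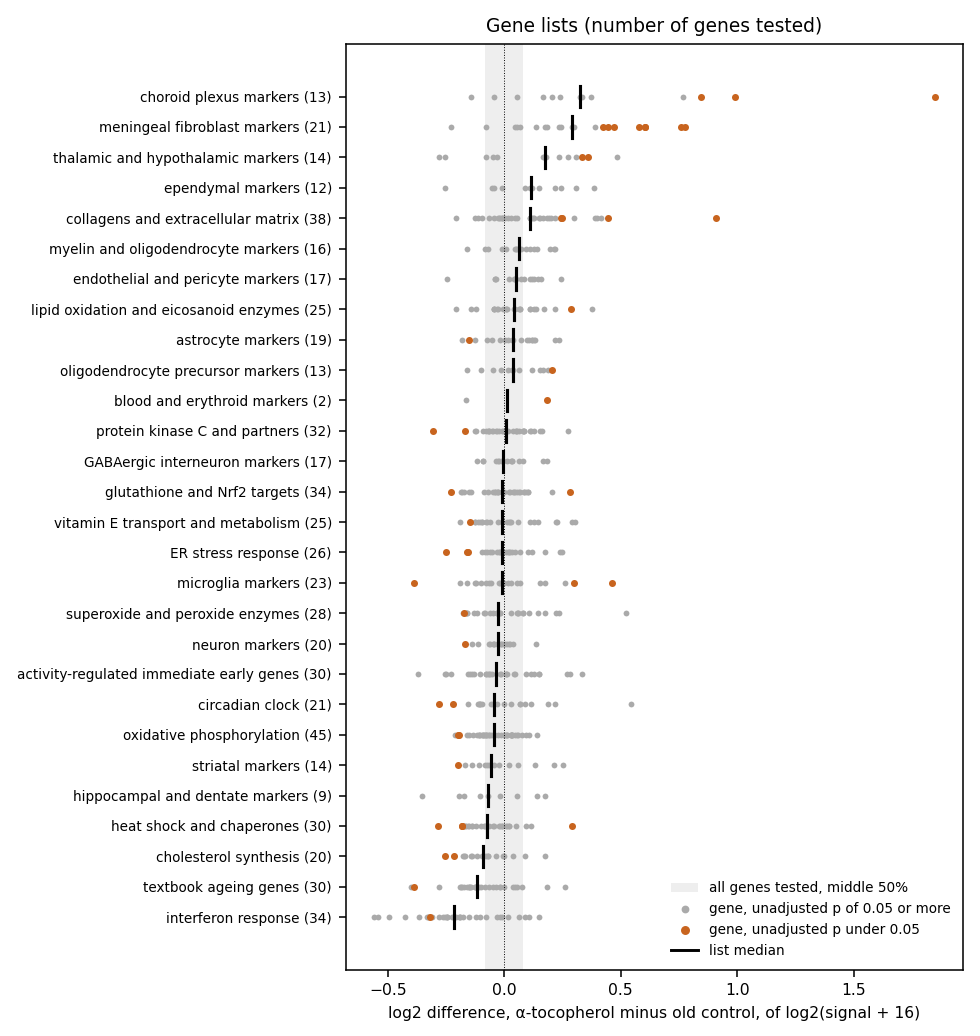
Log2 difference of α-tocopherol minus old control mice (x axis) for the tested genes of 28 lists (rows, ordered by median, number of genes in brackets). Black bars are list medians, orange points have an unadjusted p under 0.05, and the grey band holds the middle 50% of all genes; choroid plexus and meningeal markers lie farthest to the right and interferon genes farthest to the left.

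The mixture mice are another supplement against the same old controls, with 500 mg/kg of each tocopherol in place of 1000 mg/kg α-tocopherol. Because both comparisons share the 5 old controls, their values are given side by side only. The mixture against old control called 603 genes (4.52%), and α-tocopherol none. For Ogn the log2 difference from old control was 0.76 with α-tocopherol and 0.60 with the mixture, for Nrp1 0.51 and 0.57, for Sft2d2 0.61 and 0.54, for Kl 0.99 and 1.48, and for Hmox2 -0.23 and -0.15. Among the 12 higher genes named by p, 5 were called with the mixture, and among the 12 lower genes 0. The genes were chosen by their p against the same controls, so these counts support nothing.

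Compared directly, the supplements did not differ in any gene past the threshold. With limma 0 of 13351 genes (0%) had an adjusted p under 0.05, 1163 (8.71%) an unadjusted p under 0.05, and for 87.3% of the genes the 95% interval stayed inside 1.5-fold either way. The lowest adjusted p, 0.113, was that of Snx9 (mixture minus α-tocopherol 0.38 ± 0.09 SE on the log2 scale), which was low in α-tocopherol mice and gave 1185, 1084, 1044.5, 1159.7 and 1099 in mixture mice. For Dbh the difference was 1.09 ± 0.35 SE (unadjusted p = 0.0046), and mixture mice had 568, 337, 519.8, 429 and 624, within the range of the old controls. Mbp differed by -0.42 ± 0.10 SE (0.000331) and Apoe by -0.29 ± 0.08 SE (0.00111), both lower with the mixture. For Ogn it was -0.16 ± 0.17 SE and for Pcolce -0.34 ± 0.22 SE, within 2 standard errors of 0.

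α-Tocopherol mice differed from young control mice in 2970 genes (22.2%), with 1566 higher and 1404 lower, beside the 3039 of old control mice against the same young mice. The levels of the leading genes in young mice fell on different sides: the mean signal of Ogn was 317 in young, 338 in old control and 583 in α-tocopherol mice, so the supplemented mice were above both. For Nrp1 the means were 1813, 1477 and 2113, for Pidd1 387, 229 and 391, and for Zic1 2565, 1504 and 2294. Both comparisons share the young mice, and the genes were chosen by the difference between α-tocopherol and old control mice, so these means are a description. Snx9 had 867, 1076 and 854, and Slc4a1ap 807, 1046 and 845.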

How the data were processed

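Neocortical poly(A) RNA was hybridised to 1 oligonucleotide array per animal for 20 mice, per the labels' protocols. The deposited intensity values are linear signals per probe set, and GCOS is named in the submitters' processing notes. The 2% trimmed mean was 1000 on all arrays, so they had been scaled to a common level, and a shift of all RNA one way cannot be seen. The sources used here name no background step or probe set summary. The precision is limited by the number of arrays.

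From 45101 probe sets 64 controls were left out. Symbols came from the platform annotation (34945 probe sets with 1, 932 with several, 9160 with none), and 34741 were matched to RefSeq of GRCm38.p6 and 204 kept their old symbol. Probe sets in the brightest 60% were kept (mean signal limit 184.4), and each of 13351 genes was represented by its brightest probe set. Deposited intensities were transformed as log2(signal + 16) and tested over all 20 arrays with limma 3.58.1 in R 4.3.3 (lmFit, contrasts, eBayes with trend), two-sided, Benjamini-Hochberg over all genes, threshold 0.05. The scripts were tested on simulated data. Array measures were compared with exact permutation tests, and promoter windows came from RefSeq.

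The mice were grouped by their titles. Genes were named by rule: the 12 smallest p and the 5 largest differences at an unadjusted p under 0.05 in each direction, the 2 smallest p of each of 28 lists, and fixed genes and members of the vitamin E, antioxidant, meningeal and choroid plexus lists. The members and lists were chosen with earlier results of these data known. Alternatives covered the pseudocount (1 and 64), the filter, normalization, probe sets, array weights, covariates, a block and leaving out mice.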

Additional observations from a re-analysis of the deposited data

Results flagged for a closer look

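A mouse standing far from the other 4 of its group was looked for in every named gene, array measure and gene list level of both groups, by the gap to its nearest neighbour over the range of the group. Chance gives such a mouse in about 1 of 20 groups, and 17 of 286 groups had one.

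Old control mouse 3 held 6 of them. It was highest for the interferon response level (1.09, where the next control was at -0.158), for Irf1 (signal 3051, next 2036), for B2m (10028, next 6730) and for the median signal of the array (313.3, next 290.5). It was lowest for Cat (1430.2, next 2162) and for Gpx8 (27.2, next 211.3). Old control mouse 2 was highest for Kcnj13 (792, next 344), and old control mouse 5 lowest for Sod2 (5659.9, next 6432).

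Among α-tocopherol mice, mouse 2 was highest for Thbd (801, next 668) and lowest for Ttr (16214, next 34842). Mouse 1 was highest for the β-actin 3′ to 5′ ratio (2.36, next 1.57) and for the level of glutathione genes and Nrf2 targets (0.0956, next -0.0282). Mouse 3 was highest for Igf2 (2324, next 1667) and for the level of endothelial and pericyte markers (0.225, next 0.0194), and lowest for S100b (7907, next 8914). Mouse 4 was lowest for Ptprz1 (4296, next 4756) and highest for the 18S control signal (742, next 420).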

How the results depend on the processing

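In 26 of 27 alternatives no gene was called. With the Ttr signal as a covariate 1 was, Cdhr3 (limma adjusted p = 0.0385), and the cause was not tested. With every probe set tested, 1473 of 27022 probe sets had an unadjusted p under 0.05. The number of genes at that level was 440 with the β-actin ratio in the fit, and 616 to 1036 when single mice were left out. The lowest adjusted p ran from 0.0385 to 1. Replicate numbers did not pair the mice: their deviations correlated at -0.018 to 0.196, and 1 α-tocopherol mouse correlated best with its own number. With the replicate number as a block, 0 genes were called and 834 had an unadjusted p under 0.05. Leaving out single mice, the difference ranged from -0.542 to -0.249 for the β-actin ratio, from -0.112 to -0.0671 for the Gapdh ratio, from -193 to -81.9 for the 18S signal and from -0.535 to 10.2 for the median signal.

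Of 111 genes followed, 93 kept their sign in every alternative, as did all 33 named by p or size. With the Ttr covariate Kcne2 was at -0.13, Folr1 -0.12, Ttpa -0.077, Apoe -0.067, Gpx4 -0.022 and Prkca 0.066. With the β-actin covariate Folr1 was at -0.013, Ttpa -0.18 and Prkca 0.066. With means over probe sets Lrp1 was at -0.11, Lpl 0.10, Prkca 0.022, Mbp 0.00296, Sel1l 0.18 and Csnk1d 0.000585. With array weights Ttpa was at -0.048 and Lrp1 -0.00217, with cyclic loess Ttpa at -0.00685, and with equal medians Apoe at -0.000973. Without old control mice 3 and 5 Ttpa was at -0.020, Pltp -0.067, Cat -0.023, Lpcat3 -0.00262, Mbp 0.066, Gpx8 -0.00351 and Dcn -0.010. Leaving out single mice, differences ranged from -0.057 to 0.14 for Ttpa, -0.15 to 0.043 for Scarb1, -0.035 to 0.084 for Apoe, -0.037 to 0.077 for Lrp1, -0.022 to 0.16 for Pltp, -0.017 to 0.15 for Cat, -0.075 to 0.042 for Prkca, -0.046 to 0.14 for Dcn and -0.00113 to 0.14 for Col1a1. Of 727 list medians under alternatives 6 moved by more than the spread between mice. In 19 lists 1 to 3 genes had an unadjusted p under 0.05, and in all 19 that count changed when some single mouse was left out. The ependymal list had no value with only the brightest 40% of probe sets tested. The test limit on dim genes and 5 mice per group bound what could be detected.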
